A study of Saccharomyces cerevisiae with 16 samples.

Results

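The change in translational efficiency (TE, ribosome footprints relative to mRNA) of each gene was measured in *eIF3i DDKK* cells of *Saccharomyces cerevisiae* against their isogenic WT cells. All 8 libraries of this strain pair were used, of the 16 in the series, which also holds an *eIF3a/b Degron* strain and its own WT. Genes with an average of at least 32 reads over the 4 mRNA libraries were tested, which left 5244 of 5647 genes. There were 2 cultures of each strain. Aliquots of 1 lysate per culture went into its footprint library and its total mRNA library. Both strains derive from H450. This *MATa* strain carries the alleles *leu2-3,-112* and *ura3-52::GCN2* and the deletions *trp1Δ* and *tif34Δ*, together with a high-copy plasmid with *TIF34* and *URA3*. The mutant received YCp-i/TIF34-D207K-D224K-HA and the WT received YCp-i/TIF34-HA, so that each carries an HA-tagged copy of *TIF34*, and the labels list the high-copy *TIF34* for both. Cells were grown in SC medium at 30 °C, moved to warmed SC medium at 37 °C for 30 min, and treated with cycloheximide shortly before harvest. The WT cells went through the same shift.

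eIF3 is the largest of the initiation factors. It binds the small ribosomal subunit and helps to bring the initiator tRNA and the mRNA to it. The eIF3i subunit is a β-propeller protein encoded by *TIF34*. Together with eIF3g it hangs from the C-terminal part of eIF3b, in the arm of eIF3 near the channel through which mRNA enters the subunit. The double substitution replaces a pair of aspartates of eIF3i by lysines and loosens its hold on eIF3b. TE as measured here has no external standard. A change of TE, written ∆TErel, is therefore a log2 change set against the bulk of mRNAs in these libraries, and a uniform loss of translation would not be seen.

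The reference sequence around both substituted codons is shown because these codons are the only designed difference between the strains. *TIF34* (YMR146C) lies on the minus strand at chrXIII:557481-558524 (R64 build). The sequences read 5′ to 3′ along the mRNA, with the aspartate codon in capitals, and cover chrXIII:557892-557918 for D207K and chrXIII:557841-557867 for D224K, counted from the initiator methionine.
TIF34 D207K site: caattttctcctGATttaacatacttt
TIF34 D224K site: tcgttcttggtcGATgtatcgactcta

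Footprint libraries held 6177463 and 5136423 reads in *eIF3i DDKK* cells and 29982592 and 26747366 in WT, and mRNA libraries held 5048425 and 4389212 reads in *eIF3i DDKK* cells and 12164617 and 6924926 in WT. All libraries of the mutant, and its footprint libraries most of all, were thus shallower than those of WT. Reads and footprints given below as plain numbers are raw counts, not scaled for this difference in depth. One open reading frame, YDR445C, took 21.2% and 26.1% of the mRNA reads in *eIF3i DDKK* cells and 29.9% and 17.4% in WT. TE differed more between the replicate cultures of the mutant, with an SD of 0.42 for the log2 difference across genes, than between those of WT, with 0.29. The α-factor receptor gene *STE2*, expressed in *MATa* cells, had 9188 and 5281 mRNA reads in *eIF3i DDKK* cells and 7011 and 4545 in WT, whereas the α-factor gene *MF(ALPHA)1* had at most 9 in any mRNA library. Of the other α-specific genes, the a-factor receptor gene *STE3* had 61 and 56 mRNA reads in *eIF3i DDKK* cells and 225 and 121 in WT, and the α-agglutinin gene *SAG1* had from 185 to 284 over the 4 mRNA libraries of both strains. *TRP1*, deleted by the labels, still had 212 and 169 mRNA reads in *eIF3i DDKK* cells and 181 and 152 in WT. *TIF34* mRNA had 2407 and 2020 reads in *eIF3i DDKK* cells and 2735 and 2037 in WT, and these counts do not separate the mutant copy from the unaltered one.

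Of the 5244 genes, 151 had a ∆TErel decrease (2.88%) and 60 had an increase (1.14%), or 4.02% together, for *eIF3i DDKK* cells over WT at an adjusted p under 0.05 (edgeR's quasi-likelihood test, Benjamini-Hochberg). The decreases ran down to -5.90 and had a median of -1.01, and the increases ran up to 4.10 with a median of 1.57. The median over all genes tested was -0.08. In all 211 genes both mutant cultures lay beyond both WT cultures in 1 direction, and so they did in 60.5% of all genes tested. Because both libraries of a culture come from the same lysate, the fit was repeated with the culture as a block, and it then gave 668 decreases (12.7%) and 234 increases (4.46%), among them all 151 and all 60. With the replicate number as a block the counts were 433 (8.26%) and 154 (2.94%). DESeq2 called 2.44% of genes as decreased and 112 genes (2.14%) as increased, of which 116 and 60 were shared with edgeR. The excess of decreases depended on the scaling. Decreases made up 71.6% of the calls here, 54.9% with TMM factors computed within each assay (84 decreases, or 1.60%, and 69 increases) and 43.0% with library sizes alone (49 and 65), which moved the median of all genes to 0.05. The number of calls rested on each culture. It was 2 decreases and 1 increase without WT culture 1, 2 and 3 without WT culture 2 (*HAC1*, *ADH4* and *DMO1* were called in both cases), 511 and 230 without mutant culture 1, and 219 and 76 without mutant culture 2. Of the 77 called genes that are named here by rule, 11 lost the call with TMM within each assay, 27 with library sizes alone and 8 without mutant culture 2. Most of these losses, but not all of those without mutant culture 2, are given with their groups.

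**Figure D1:**
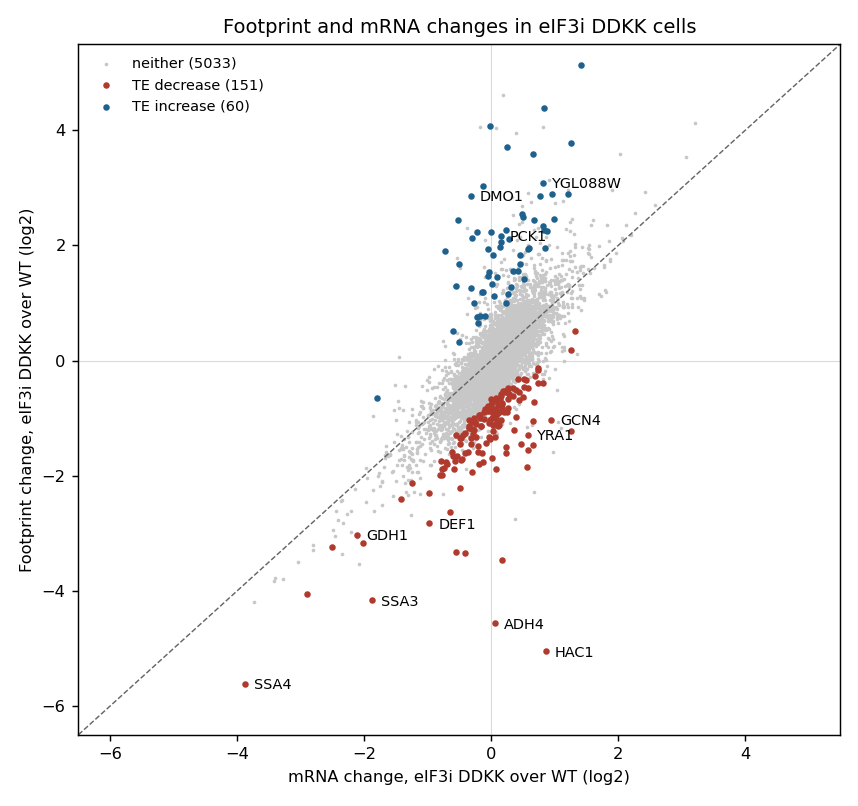
Log2 change of mRNA (x axis) and of footprints (y axis) in *eIF3i DDKK* cells over WT for the 5244 genes tested, with 1 point per gene and the line of equal change dashed. Red points are the 151 genes with a TE decrease, which lie below the line, and blue points the 60 with an increase, which lie above it; *SSA4* combines an mRNA change of -3.88 with a footprint change of -5.61, whereas *ADH4* has an mRNA value of 0.06.

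Single genes were described first among those with at least 100 footprints in each of the 4 footprint libraries. These numbered 4147, of which 97 had a decrease (2.34%) and 28 an increase (0.675%). This minimum is a raw count, so it asks for a higher footprint CPM in the shallower mutant libraries than in WT. The 10 largest decreases fell on genes of several kinds: the stress-induced Hsp70 chaperones *SSA3* and *SSA4*, the leucine pathway enzyme *LEU2*, the mRNA export adaptor *YRA1*, the RNA polymerase II degradation factor *DEF1*, the glycolytic activator *TYE7*, the nuclear protein gene *GDS1*, the RNA-binding translational repressor *SSD1*, the vacuolar sorting receptor *PEP1* and the histone H3 lysine methyltransferase *SET2*. Their ∆TErel lay between -2.29 and -1.55.

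*SSA3* (YBL075C) had 27.7 and 45.3 footprint CPM (reads scaled to a common library size with TMM factors) in *eIF3i DDKK* cells and 548 and 757 in WT. Its mRNA was at 62.2 and 97.6 CPM in *eIF3i DDKK* cells and at 242 and 345 in WT. Both levels were lower in the mutant without overlap, and the footprints by more, which gave a ∆TErel of -2.29 (standard error 0.41, adjusted p = 0.0206, edgeR). *SSA4* (YER103W) went the same way, with 142 and 194 footprint CPM in *eIF3i DDKK* cells and 7048 and 9367 in WT, and with 123 and 173 mRNA CPM in *eIF3i DDKK* cells and 1736 and 2622 in WT. Its ∆TErel was -1.73 (standard error 0.38, adjusted p = 0.0366), and the call was lost with TMM factors computed within each assay (adjusted p = 0.0519). No 28-nt window of either coding sequence occurs in another coding sequence of the RefSeq annotation.

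In *DEF1* (YKL054C), whose product targets stalled RNA polymerase II for ubiquitylation, 264 and 268 footprint CPM were counted in *eIF3i DDKK* cells and 1748 and 2026 in WT. Its mRNA stood at 194 and 206 CPM in *eIF3i DDKK* cells and at 374 and 411 in WT, and its ∆TErel was -1.85 (standard error 0.20, adjusted p = 0.0020). In *GDS1* (YOR355W) the mRNA was instead higher in the mutant, with 347 and 345 CPM in *eIF3i DDKK* cells and 225 and 215 in WT. Its footprints were at 87.6 and 80.1 CPM in *eIF3i DDKK* cells and at 174 and 175 in WT, for a ∆TErel of -1.71 (standard error 0.17, adjusted p = 0.0020). *SSD1* (YDR293C) shows a TE change with a level mRNA. Its mRNA had 351 and 439 CPM in *eIF3i DDKK* cells and 381 and 404 in WT, and its footprints 103 and 84.3 in *eIF3i DDKK* cells and 293 and 310 in WT. Its ∆TErel was -1.70 (standard error 0.22, adjusted p = 0.00494). *PEP1* and *SET2* had ∆TErel values of -1.60 and -1.55, and their mRNA changes of -0.20 and 0.35 did not pass the threshold.

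**Figure D2:**
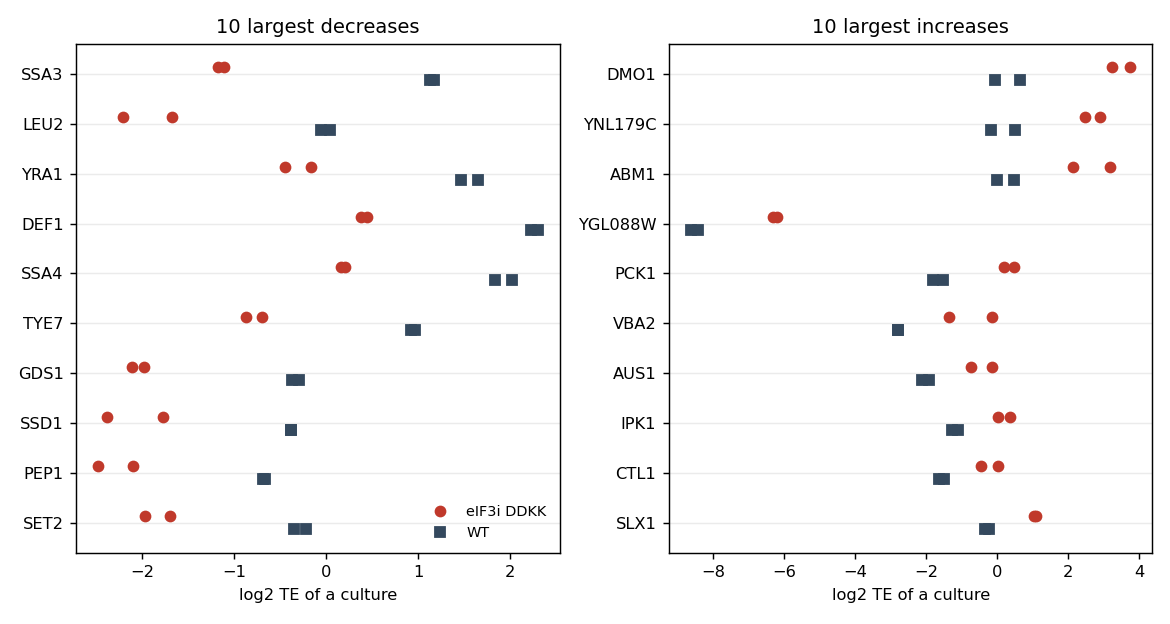
Log2 TE of each culture (footprint CPM over mRNA CPM after 0.5 counts were added) for the well-counted genes with the 10 largest decreases (left) and the 10 largest increases (right). Red circles are the 2 *eIF3i DDKK* cultures and dark squares the 2 WT cultures. The strains do not overlap in any of the 20 genes because the rule that picked them required this. *YGL088W*, which overlaps the snoRNA gene *SNR10*, lies far below the others.

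*LEU2* (YCL018W) and *YRA1* (YDR381W) carry limits of their own. *LEU2* had 20.8 and 33.7 footprint CPM in *eIF3i DDKK* cells and 74.3 and 72.9 in WT, and 96.0 and 108 mRNA CPM in *eIF3i DDKK* cells and 76.8 and 70.4 in WT. Its ∆TErel was -1.91 (standard error 0.26, adjusted p = 0.00663), but both strains carry the *leu2-3,-112* allele, and the sources used here do not say whether a plasmid adds a further copy of the gene. *YRA1* had 170 and 147 footprint CPM in *eIF3i DDKK* cells and 404 and 371 in WT, and 191 and 200 mRNA CPM in *eIF3i DDKK* cells and 129 and 134 in WT, for a ∆TErel of -1.86 (standard error 0.18, adjusted p = 0.0020). Its counted region includes an intron of 766 nt. The counted length spanned the intron in all 244 tested genes that have one, so mRNA reads from unspliced transcripts enter the TE of such genes. Of the 211 calls, *HAC1*, *YRA1*, *MEI4* and *HFM1* have an intron.

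Genes with fewer footprints gave 54 further decreases and 32 further increases. *HAC1* (YFL031W) encodes the transcription factor of the unfolded protein response. The intron of its mRNA pairs with the 5′-untranslated region and blocks translation until the endonuclease Ire1 removes it. *HAC1* had 69 and 56 footprints (11.6 and 10.7 CPM) in *eIF3i DDKK* cells and 8998 and 7842 (380 and 357 CPM) in WT. Its mRNA stood at 502 and 584 CPM in *eIF3i DDKK* cells and at 299 and 301 in WT. Its ∆TErel was -5.90 (standard error 0.21, adjusted p = 5.40e-07). The 252-nt intron lies within the counted region, and the counts do not separate spliced from unspliced mRNA. *ADH4*, an alcohol dehydrogenase gene, had 11 and 7 footprints (1.84 and 1.33 CPM) in *eIF3i DDKK* cells and 875 and 862 (36.9 and 39.2 CPM) in WT. Its mRNA level was nearly equal, at 59.6 and 56.8 CPM in *eIF3i DDKK* cells and 60.0 and 51.4 in WT, and its ∆TErel was -4.62 (standard error 0.26, adjusted p = 2.57e-05). *ADH5* (10 and 9 footprints in *eIF3i DDKK* cells, 395 and 393 in WT) had a ∆TErel of -2.94 (standard error 0.35, adjusted p = 0.00285). The flocculin gene *FLO10* had 2 and 3 footprints in *eIF3i DDKK* cells and 124 and 105 in WT, too few for a fold change. In *SER3*, a serine pathway enzyme gene with a ∆TErel of -2.49 (standard error 0.35, adjusted p = 0.00716), the annotation overlaps the non-coding gene *SRG1*, and reads of both cannot be told apart.

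The 10 largest increases among well-counted genes lay between 1.36 and 3.18. Of these 10, 9 had under 15 footprint CPM in both WT cultures, against a median of 49.1 over all genes. At such WT levels a gene could reach the raw footprint minimum in the shallower mutant libraries only with a higher footprint CPM there. The low WT values of these increases are therefore not separate from that minimum. *DMO1* (YJR120W) had 121 and 161 footprint CPM in *eIF3i DDKK* cells and 14.9 and 24 in WT, with mRNA at 12.8 and 11.9 CPM in *eIF3i DDKK* cells and at 15.4 and 15.4 in WT. Its ∆TErel was 3.18 (standard error 0.34, adjusted p = 0.0020). *PCK1* (YKR097W), the phosphoenolpyruvate carboxykinase of gluconeogenesis, had 20.3 and 27 footprint CPM in *eIF3i DDKK* cells and 5.11 and 5.37 in WT. Its mRNA was close in both strains, at 17.7 and 19.6 CPM in *eIF3i DDKK* cells and 14.6 and 19 in WT, and its ∆TErel was 2.01 (standard error 0.30, adjusted p = 0.00947). The vacuolar amino acid transporter *VBA2* (2.01), the sterol importer *AUS1* (1.58), the inositol phosphate kinase *IPK1* (1.38), the RNA triphosphatase *CTL1* (1.36) and the structure-specific endonuclease subunit *SLX1* (1.36) followed, with adjusted p between 0.0127 and 0.0366. *AUS1* had 18.9 and 25.9 footprint CPM in *eIF3i DDKK* cells and 9.45 and 9.19 in WT, and 31.7 and 28.9 mRNA CPM in *eIF3i DDKK* cells and 41.0 and 34.7 in WT.

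Other large increases rest on loci that limit them. *ABM1* had a ∆TErel of 2.45 (standard error 0.41, adjusted p = 0.0146) from only 30 and 18 mRNA reads in *eIF3i DDKK* cells and 62 and 36 in WT. YGL088W had a ∆TErel of 2.27 (standard error 0.25, adjusted p = 0.0020), with 81.1 and 66.4 footprint CPM in *eIF3i DDKK* cells and 9.32 and 8.05 in WT against 6012 and 5247 mRNA CPM in *eIF3i DDKK* cells and 3228 and 3196 in WT. This reading frame overlaps the snoRNA gene *SNR10*, so its mRNA counts cannot be assigned to a coding transcript. YNL179C (2.51, standard error 0.28, adjusted p = 0.0020) and YGL072C (3.71, standard error 0.43, adjusted p = 0.00261) are not in the RefSeq annotation used here. YGL072C had 133 and 138 footprints in *eIF3i DDKK* cells and 15 and 16 in WT. YGL193C had 8 and 10 footprints in *eIF3i DDKK* cells and 2 and 1 in WT, and *DAN4*, a cell wall mannoprotein gene, had 14 and 13 footprints in *eIF3i DDKK* cells and 0 and 6 in WT, so no fold change is given for either. Among the calls as a whole, 6 of the 56 increased genes and 3 of the 150 decreased genes that are in the annotation overlap another annotated gene, against 88 of 5213 tested genes (1.69%).

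Most chaperone genes of the cytosol and the endoplasmic reticulum (ER) had less mRNA in the mutant, and a few also had a lower TE. In the list of 36 cytosolic chaperone genes, which buffer unfolded proteins after heat, 2 decreased (*SSA3* and *SSA4*) and 0 increased by edgeR's quasi-likelihood test, and 9 decreased with the culture block. Of all genes tested 2.88% decreased and 1.14% increased, and 12.7% and 4.46% did so with the culture block. At an unadjusted p under 0.05 the list had 7 decreases and 0 increases, and DESeq2 called 2 and 0. The median ∆TErel was -0.37. Measured from the all-gene median this is -0.29, with a span of -0.36 to -0.16 over the 4 pairings of a mutant with a WT culture, and it was -0.14 without mutant culture 2 and -0.17 without WT culture 1. The mRNA of 24 of them was lower in *eIF3i DDKK* cells and that of 3 higher (12.0% and 16.5% of all genes tested). Of 22 genes for ER folding and the unfolded protein response, 3 decreased (*HAC1*, *JEM1* and *ERO1*) and 0 increased, with 8 and 0 at an unadjusted p under 0.05, 3 and 0 by DESeq2, and 9 and 0 with the culture block. The median ∆TErel of this list was -0.35 and the median mRNA change -1.24, with 15 of the 22 lower in mRNA. Relative to all genes the median TE value was -0.27, and -0.46 without mutant culture 1.

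*JEM1* (YJL073W), an ER J-domain cochaperone, had 15.1 and 14.8 footprint CPM in *eIF3i DDKK* cells and 131 and 138 in WT. Its mRNA was at 25.8 and 26.7 CPM in *eIF3i DDKK* cells and 111 and 102 in WT, and its ∆TErel was -1.14 (standard error 0.18, adjusted p = 0.0113). *ERO1* (YML130C), the thiol oxidase that drives disulfide formation, had 79.8 and 73.4 footprint CPM in *eIF3i DDKK* cells and 720 and 732 in WT. Its mRNA had 95.7 CPM in each mutant culture and 537 and 544 in WT, for a ∆TErel of -0.75 (standard error 0.18, adjusted p = 0.0490), which passed narrowly and was lost with library sizes alone, with TMM within each assay and without mutant culture 2. That of *JEM1* was lost with library sizes alone. In both genes the mRNA change, -2.02 in *JEM1* and -2.50 in *ERO1*, was larger than the change of TE. Further heat-induced genes, chosen after their values were seen, had the same shape: *BTN2*, a protein sequestrase, changed by -2.91 in mRNA and by -1.14 in TE, the mitochondrial Hsp40 *MDJ1* by -1.43 and -0.97, and the Hsp40 *APJ1* by -1.25 and -0.87.

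**Figure D3:**
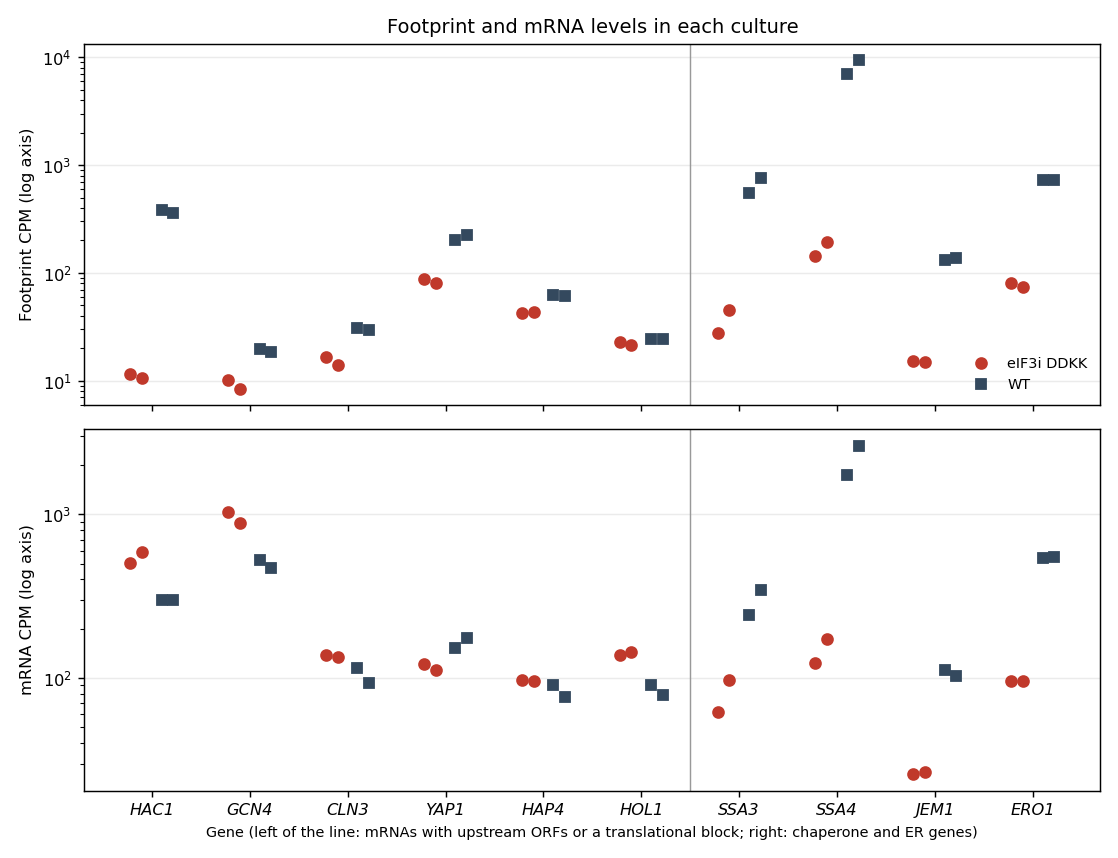
Footprint CPM (top) and mRNA CPM (bottom), both on log axes, of 10 genes in each culture, with *eIF3i DDKK* (red circles) left of WT (dark squares). In *HAC1*, *GCN4* and *HOL1* the mRNA of both mutant cultures lies above that of both WT cultures, while in *SSA3*, *SSA4*, *JEM1* and *ERO1* mRNA and footprints are both lower in the mutant.

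Upstream open reading frames (uORFs) in a leader hold back initiation at the main start codon. Of 15 genes with known uORFs, chosen for the presence of a uORF and not for proven control by it, 5 decreased and 0 increased by edgeR's quasi-likelihood test, against 2.88% and 1.14% of all genes. The counts were 7 and 1 at an unadjusted p under 0.05, 4 and 1 by DESeq2, and 6 and 1 with the culture block. The median ∆TErel of the list was -0.44, or -0.36 relative to all genes, and between -0.49 and -0.23 over the pairings of cultures. Without mutant culture 2 it was -0.23 relative to all genes. *GCN4* (YEL009C), the activator of amino acid synthesis whose uORFs make its translation respond to starvation, had 61 and 44 footprints in *eIF3i DDKK* cells and 464 and 404 in WT. Its mRNA stood at 1037 and 885 CPM in *eIF3i DDKK* cells and at 529 and 468 in WT. The mRNA was thus higher and the footprints lower in the mutant, and ∆TErel was -1.97 (standard error 0.23, adjusted p = 0.00285), between -2.02 and -1.93 with single cultures left out. Log2 TE of *GCN4* was -6.65 and -6.71 in *eIF3i DDKK* cells and -4.75 and -4.67 in WT, so that it was poorly translated in both.

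The other uORF genes had smaller changes. *CLN3* (YAL040C), the G1 cyclin that starts the cell cycle, had 98 and 74 footprints (16.4 and 14.1 CPM) in *eIF3i DDKK* cells and 730 and 649 (30.8 and 29.5 CPM) in WT. It had 138 and 135 mRNA CPM in *eIF3i DDKK* cells and 115 and 93.0 in WT, and a ∆TErel of -1.37 (standard error 0.20, adjusted p = 0.00990). The high-affinity polyamine importer *HOL1* (YNR055C) had nearly the same footprints, 23 and 21.3 CPM in *eIF3i DDKK* cells and 24.3 and 24.3 in WT, on more mRNA, 138 and 144 CPM in *eIF3i DDKK* cells and 90.1 and 78.6 in WT. Its ∆TErel was -0.87 (standard error 0.18, adjusted p = 0.0291). *YAP1*, the oxidative stress activator, changed by -0.84 (standard error 0.18, adjusted p = 0.0358), and *HAP4*, the respiratory activator, by -0.75 (standard error 0.17, adjusted p = 0.0423). At the other end of the list *CAD1*, another stress activator of the *YAP1* family, had a ∆TErel of 0.84 and *DCD1* one of 0.44, neither past the threshold. The call of *YAP1* was lost with TMM within each assay, and those of *YAP1* and *HOL1* with library sizes alone. *HAP4*, *CAD1* and *DCD1* were chosen after their values were seen. Reads on the uORFs themselves were not analysed here.

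Genes for translation inside mitochondria made up the 3 lists with the lowest medians of the 39. Of all genes tested 2.88% decreased and 1.14% increased, and 12.7% and 4.46% did so with the culture block. Nuclear genes encode the proteins of the mitochondrial ribosome, which makes the few membrane proteins that mitochondrial DNA encodes. In its small subunit, 3 of 32 genes decreased (*NAM9*, *PET123* and *MRPS35*) and 0 increased by edgeR's quasi-likelihood test, with 17 and 0 at an unadjusted p under 0.05 (14.4% and 6.43% of all genes), 2 and 0 by DESeq2 and 14 and 0 with the culture block. The median ∆TErel was -0.49, or -0.40 after the median of all genes was subtracted, and 28 of the 32 lay below the median of all genes. In its large subunit 3 of 46 decreased (*MRP7*, *RML2* and *MRPL7*) and 0 increased, with 11 and 0 at an unadjusted p under 0.05, 2 and 0 by DESeq2 and 8 and 0 with the culture block, around a median of -0.32. *NAM9* (YNL137C), a small-subunit protein gene, had 45.4 and 39.0 footprint CPM in *eIF3i DDKK* cells and 133 and 123 in WT. Its mRNA was at 74.1 and 59.8 CPM in *eIF3i DDKK* cells and at 87.4 and 90.9 in WT, and its ∆TErel was -1.19 (standard error 0.20, adjusted p = 0.0146). With library sizes alone the calls of *PET123*, *MRPS35*, *MRP7*, *RML2* and *MRPL7* were lost, and those of *MRPS35* and *MRPL7* also with TMM within each assay and by DESeq2.

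Factors that act with the mitochondrial ribosome lay at the same level. Of 13 mitochondrial tRNA synthetase genes, 1 decreased (*NAM2*, the leucyl-tRNA synthetase, -1.04) and 0 increased, with 8 and 0 at an unadjusted p under 0.05, 1 and 0 by DESeq2 and 5 and 0 with the culture block. Their median was -0.53, the lowest of the 39 lists. Of 25 mitochondrial translation factors and activators, 1 decreased (the elongation factor *MEF1*, -0.97) and 0 increased by edgeR's quasi-likelihood test, and the median was -0.46. Here 13 decreases and 4 increases had an unadjusted p under 0.05, DESeq2 called 1 and 0, and the culture block 8 and 2. The respiratory chain and ATP synthase, whose nuclear genes serve the same organelle, differed in direction. None of 39 genes passed the test, 1 decrease and 4 increases had an unadjusted p under 0.05, DESeq2 called 0, and the median was 0.07, which is 0.16 above that of all genes. With library sizes alone the calls of *NAM2* and *MEF1* were lost. The relative medians of these 5 lists kept their sign under each scaling, filter, block and left-out culture tried.

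Regulators of mRNA and of signalling were read against all genes tested, of which 2.88% decreased and 1.14% increased (14.4% and 6.43% at an unadjusted p under 0.05, 12.7% and 4.46% with the culture block). Among 59 genes for RNA decay, P bodies and RNA binding, 5 decreased and 0 increased by edgeR's quasi-likelihood test, with 24 and 0 at an unadjusted p under 0.05, 5 and 0 by DESeq2 and 20 and 0 with the culture block. *SSD1* was followed by *PUF4*, a Pumilio family repressor (-1.63, standard error 0.28, adjusted p = 0.0155), *MRN1*, an RNA-binding protein gene (-1.46, standard error 0.19, adjusted p = 0.00492), *NGR1*, which promotes mRNA decay (-1.15, standard error 0.18, adjusted p = 0.0113), and *PBP1*, the ataxin-2 homologue (-0.69, standard error 0.16, adjusted p = 0.0440), the last chosen after its value was seen. The mRNA of *MRN1* stood at 115 and 104 CPM in *eIF3i DDKK* cells and at 132 and 110 in WT, and its footprints at 27.3 and 26.1 CPM in *eIF3i DDKK* cells and at 78.7 and 84.0 in WT. In the list of 107 signalling kinases and regulators, 9 decreased and 0 increased, with 40 and 5 at an unadjusted p under 0.05, 6 and 2 by DESeq2 and 37 and 3 with the culture block. The largest of these was that of *KSP1*, a kinase of the TOR pathway, with 12.2 and 9.32 footprint CPM in *eIF3i DDKK* cells and 62.4 and 71.6 in WT and a ∆TErel of -1.98 (standard error 0.21, adjusted p = 0.0020). *MTL1* and *ROM2* of the cell wall integrity pathway (-1.19 and -1.04) and *REG1*, a regulatory subunit of the glucose repression phosphatase (-1.09), followed. The calls of *ROM2* and *REG1* were lost with library sizes alone.

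Membrane traffic and transport gave further decreases. The shares over all genes tested were 2.88% and 1.14%, or 12.7% and 4.46% with the culture block. Of 67 genes for ubiquitin ligases and endocytosis, 6 decreased and 0 increased by edgeR's quasi-likelihood test, with 19 and 1 at an unadjusted p under 0.05, 5 and 0 by DESeq2 and 17 and 1 with the culture block. *RSP5*, the ubiquitin ligase that marks plasma membrane proteins for uptake, had 159 and 116 footprint CPM in *eIF3i DDKK* cells and 345 and 347 in WT at 268 and 271 mRNA CPM in *eIF3i DDKK* cells and 274 and 280 in WT. Its ∆TErel was -1.29 (standard error 0.22, adjusted p = 0.0155). The ubiquitin proteases *UBP13* and *UBP12* (-1.27 and -0.85) and the endocytic adaptor *EDE1* (-1.17) also decreased. Among 79 plasma membrane transporter genes, 7 decreased and 3 increased, and 36 and 5 with the culture block, around a median of -0.41. The inositol transporter *ITR2* had the largest decrease (-1.37, standard error 0.25, adjusted p = 0.0209). The increases were those of the allantoin transporter *DAL4* (2.43), the GABA permease *UGA4* (1.90) and the sulfate permease *SUL2* (1.86), with adjusted p of 0.0233, 0.0207 and 0.0448 and with 24 to 81 footprints per library. The call of *SUL2* was lost without mutant culture 2 and that of *UBP12* with library sizes alone.

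Among 146 genes for sequence-specific transcription factors, 11 decreased and 3 increased, and 30 and 11 with the culture block, around a median of -0.17. The shares over all genes tested were 2.88% and 1.14%, or 12.7% and 4.46% with the culture block. At an unadjusted p under 0.05 they were 14.4% and 6.43%. *TYE7* (YOR344C) had 35.4 and 38.8 footprint CPM in *eIF3i DDKK* cells and 163 and 182 in WT, with mRNA at 64.7 and 63.0 CPM in *eIF3i DDKK* cells and 83.4 and 96.0 in WT, for a ∆TErel of -1.73 (standard error 0.18, adjusted p = 0.0020). The glucose repressor *MIG2* changed by -1.32 (standard error 0.29, adjusted p = 0.0366). The GATA factor *GZF3*, a repressor of nitrogen-regulated genes, rose by 1.94 (standard error 0.31, adjusted p = 0.0127). It had 73 and 106 footprints in *eIF3i DDKK* cells and 56 and 42 in WT, which is a log2 change of 2.90 after scaling. Of 78 genes for heterochromatin and chromatin remodelling, 5 decreased and 0 increased, with 14 and 1 at an unadjusted p under 0.05, 4 and 1 by DESeq2 and 11 and 1 with the culture block. They were led by *SET2*, the histone gene regulator *SPT21* (-1.25), the SAGA subunit *HFI1* (-1.19) and the NuA4 subunit *EPL1* (-1.11). Of 68 cell cycle regulators, 3 decreased and 1 increased, and 14 and 4 with the culture block. Their median relative to all genes changed sign between fits, with a span of -0.10 to 0.09. *CLB2*, the main mitotic B-type cyclin, had 73 and 36 footprints (12.2 and 6.85 CPM) in *eIF3i DDKK* cells and 869 and 757 (36.7 and 34.4 CPM) in WT. Its ∆TErel was -1.96 (standard error 0.43, adjusted p = 0.0366). The Pho85 cyclin gene *PCL5* changed by -1.05, and the spindle checkpoint gene *BUB3* rose by 0.98 (standard error 0.22, adjusted p = 0.0400). Calls lost were those of *MIG2* with TMM within each assay, of *MIG2*, *SPT21*, *EPL1*, *PCL5* and *BUB3* with library sizes alone, of *CLB2* with library sizes without YDR445C, and of *PCL5* and *BUB3* without mutant culture 2.

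In the metabolic and structural lists the calls were few, and their share ran from below that of all genes (2.88% and 1.14%) to above it. Of 83 amino acid biosynthesis genes, 4 decreased and 0 increased, with 16 and 3 at an unadjusted p under 0.05, 4 and 1 by DESeq2 and 18 and 1 with the culture block. After *SER3* and *LEU2* these were the glutamate synthase *GLT1* (-1.35) and the glutamate dehydrogenase *GDH1* (-0.91), of which *GDH1* also had 58.2 and 60.8 mRNA CPM in *eIF3i DDKK* cells and 248 and 267 in WT. In fermentation 3 of 19 decreased (*ADH4*, *ADH5* and the aldehyde dehydrogenase *ALD5* at -1.11) and 0 increased, with 3 and 0 at an unadjusted p under 0.05, 3 and 0 by DESeq2 and 5 and 0 with the culture block. Of 57 cell wall genes 4 decreased, among them the phospholipase *PLB1* (-1.07) and the chitin synthase *CHS3* (-1.01), and 1 increased, and 17 and 3 with the culture block. Of 59 bud neck, septin and polarity genes 4 decreased, led by the Cdc42 GTPase-activating protein gene *RGA1* (-1.01) and the formin *BNI1* (-0.98), and 2 increased, the sporulation septin *SPR3* (1.82) and the bud site gene *BUD5* (1.21), and 14 and 2 with the culture block. In *BUD5*, 36.5% of 28-nt windows occur in another coding sequence, so its counts are uncertain. RNA polymerase II and Mediator had 2 decreases of 51, the largest subunit *RPO21* (-1.18) and the initiation factor TFIIB gene *SUA7* (-0.98), and 0 increases, with 8 and 2 at an unadjusted p under 0.05, 2 and 1 by DESeq2 and 5 and 1 with the culture block. In protein glycosylation 1 of 41 (2.44%) decreased, the mannosyltransferase *MNN2* (-0.82), and 0 increased, with 11 and 0 at an unadjusted p under 0.05, 1 and 0 by DESeq2 and 13 and 0 with the culture block. Calls lost were those of *ALD5*, *GDH1*, *BNI1*, *RPO21* and *MNN2* with TMM within each assay, of *ALD5*, *GDH1*, *BNI1*, *MNN2*, *PLB1*, *CHS3*, *RGA1* and *SUA7* with library sizes alone, and of *ALD5*, *GDH1* and *SPR3* without mutant culture 2.

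**Figure D4:**
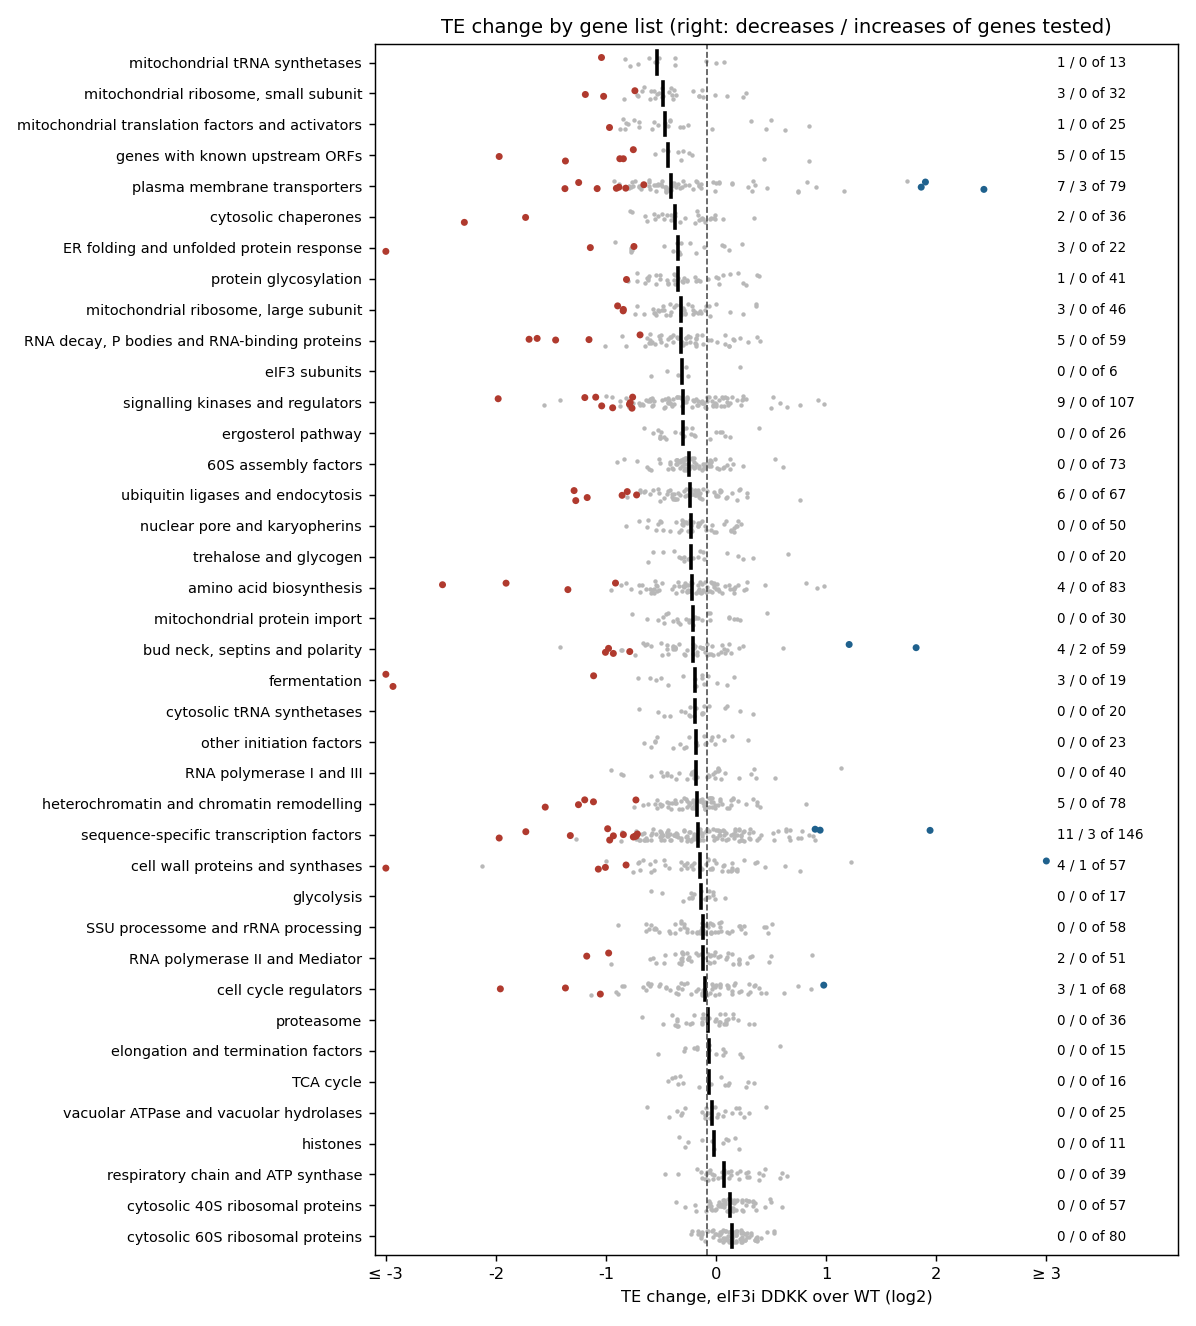
∆TErel of every tested member of the 39 gene lists (1 dot per gene, values beyond -3 and 3 drawn at the edge), with the median of each list as a black bar and the median of all genes, -0.08, dashed. Red and blue dots are decreases and increases at an adjusted p under 0.05, counted at the right beside the number tested; the list medians run from -0.53 in mitochondrial tRNA synthetases to 0.15 in the ribosomal proteins of the large subunit, and the cytosolic tRNA synthetases include the transporter *YOR1*.

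The genes of the translation machinery itself lay on both sides of the median without a call. Of the 57 and 80 genes for ribosomal proteins of the small and large cytosolic subunit, 0 passed edgeR's quasi-likelihood test in either direction. DESeq2 called 0 as well, the culture block called 4 increases in the small and 1 in the large subunit, and 1 gene of the small subunit (*RPS28A*, 0.50) and 0 of the large had an unadjusted p under 0.05, or 1 in all. Their medians were 0.12 and 0.15, which is 0.21 and 0.23 above that of all genes, and only 5 and 11 of the genes lay below the median of all genes. Their mRNA was higher in *eIF3i DDKK* cells for 30 and 34 genes and lower for 0 (16.5% and 12.0% of all genes tested), with median changes of 0.54 and 0.46. Of the 6 eIF3 subunit genes 0 were called, and *NIP1* (eIF3c) had the lowest value at -0.59 (standard error 0.29, adjusted p = 0.295) and *TIF34* the highest at 0.22 (standard error 0.19, adjusted p = 0.557). At an unadjusted p under 0.05 *TIF32* (eIF3a, -0.45) passed alone, by DESeq2 0, and with the culture block *NIP1* alone. Among 23 other initiation factor genes 0 were called by edgeR and by DESeq2, 4 decreases had an unadjusted p under 0.05 and 5 passed with the culture block, and the smallest p was that of *TIF4632* (eIF4G2, -0.59, adjusted p = 0.108).

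Glycolysis is a pathway in which mRNA moved without a call in TE. Of its 17 genes 0 passed in TE by edgeR or DESeq2, 0 had an unadjusted p under 0.05, and 2 decreased with the culture block, whereas the mRNA of 15 was lower in *eIF3i DDKK* cells (12.0% of all genes tested), with a median of -1.40. The hexokinase *HXK2* had 956 and 662 footprints in *eIF3i DDKK* cells and 20004 and 16141 in WT, a log2 change of -2.46 after scaling. Its mRNA change was -1.97 and its ∆TErel -0.49 (standard error 0.26, adjusted p = 0.326). The proteasome was similar, with 26 of 36 genes lower in mRNA, 0 called in TE by either tool, 2 decreases and 0 increases at an unadjusted p under 0.05 and a median ∆TErel of -0.07. Histone genes, with the linker and variant histones among them, had a median of -0.02, with 8 of 11 higher and 1 lower in mRNA (16.5% and 12.0% of all genes tested) and 0 called in TE by either tool or at an unadjusted p under 0.05. Of the other lists without a call by edgeR, those for 60S assembly factors (73 genes, median -0.25), ergosterol synthesis (26, -0.30), nuclear pores and karyopherins (50, -0.23), mitochondrial protein import (30, -0.21), cytosolic tRNA synthetases (20, -0.19, of which 1 is the transporter *YOR1*, matched through an alias), RNA polymerases I and III (40, -0.18), trehalose and glycogen (20, -0.22) and the SSU processome (58, -0.12) lay below the median of all genes. They had from 1 to 9 decreases at an unadjusted p under 0.05 (14.4% of all genes tested), and DESeq2 called 1 decrease in nuclear pores and karyopherins and 1 increase in RNA polymerases I and III. With the culture block some members were called (12.7% of all genes tested decreased and 4.46% increased). Examples are the decreases of *ERG20* (-0.57) and *HMG2* (-0.51) in ergosterol synthesis and the increase of *RRN5* (1.13) in RNA polymerases I and III. Elongation and termination factors (15, -0.06), the TCA cycle (16, -0.06) and vacuolar ATPase and hydrolases (25, -0.03) lay within 0.05 of it, with 0 calls by DESeq2 and from 0 to 2 decreases and 0 increases at an unadjusted p under 0.05.

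The genes with a TE change were also described by features that took no part in the test, and no test of these features was made. Decreased genes had a median counted coding length of 1890 nt and increased genes one of 1418 nt, against 1218 nt in all genes tested. In 5 classes of equal size by counted length, the share of decreased genes was 0.477%, 1.81%, 2.19%, 3.91% and 6.01% from the shortest to the longest, and the median ∆TErel ran from 0.07 to -0.23, while the median standard error was 0.25 in the shortest and 0.21 in the longest class. The share of increased genes was between 0.667% and 1.62% in every class. TE in the WT of the Degron background, which shares no library with this comparison, was low for both kinds of call. Its median log2 value was -0.64 in decreased and -1.53 in increased genes and -0.01 in all genes. In the lowest of 5 classes by that TE, 5.35% of genes decreased and 3.44% increased, and in the highest 0.765% and 0.478%. That WT grew in another medium and at another temperature.

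**Figure D5:**
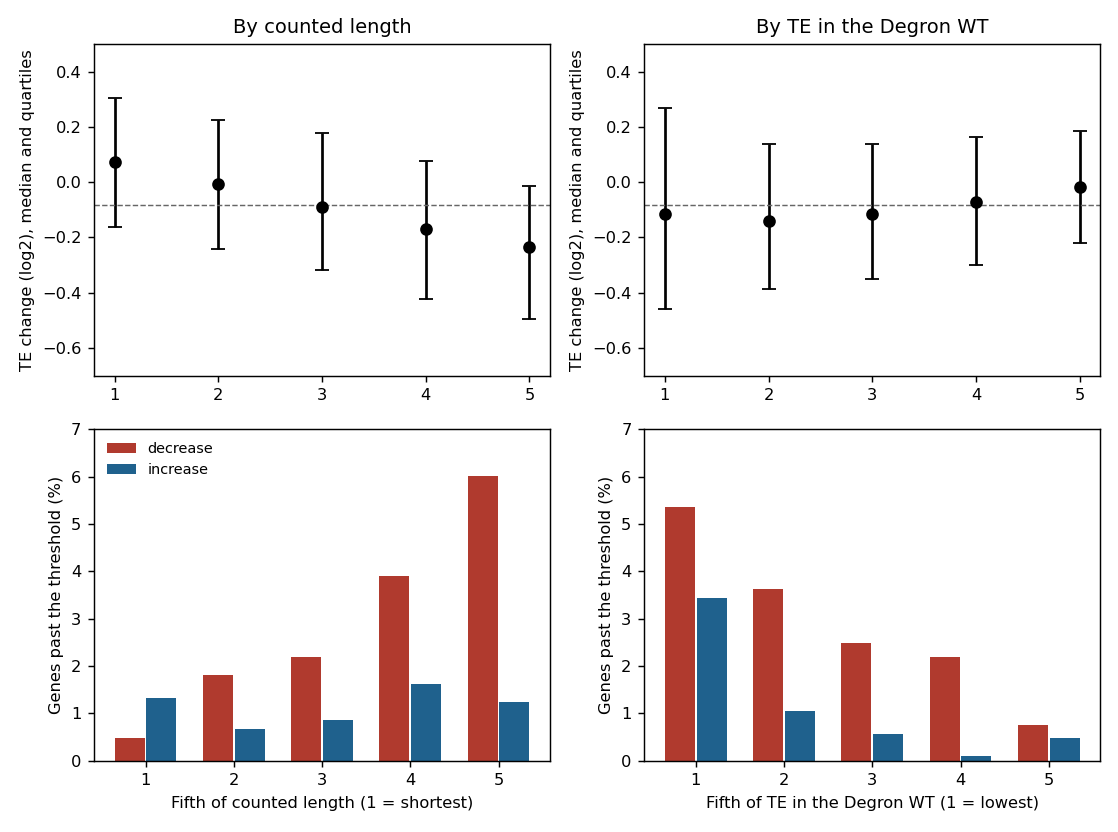
Top, median ∆TErel with its quartiles in 5 classes of counted length (left, shortest first) and of TE in the Degron WT (right, lowest first), with the median of all genes dashed. Bottom, percentage of genes with a decrease (red) or an increase (blue) in each class of 1045 to 1049 genes; decreases run from 0.477% in the shortest to 6.01% in the longest class.

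The bases around the start codon were read from the R64 genome for the 5213 tested genes in the RefSeq annotation. A at position -3 is the favoured base of yeast start codons. The contexts of the largest decreases and increases among well-counted genes of the annotation are shown because these genes carry the largest calls, from 12 bases before the start codon to 3 after it and 5′ to 3′, with the base at position -3 and the start codon in capitals. The first 4 decreased and the last 4 increased.
SSA3 (chrII:86443-86460, minus strand): ctacaaagaAaaATGtct
LEU2 (chrIII:91312-91329, plus strand): tataccattCtaATGtct
YRA1 (chrIV:1236546-1236563, plus strand): tacatctgcTaaATGtct
DEF1 (chrXI:338748-338765, minus strand): catatatatAtaATGtct
DMO1 (chrX:647114-647131, plus strand): tcctttcacGtgATGcgc
ABM1 (chrX:628700-628717, plus strand): tagtttccaCgtATGtct
YGL088W (chrVII:345824-345841, plus strand): taccgttttAcaATGcat
PCK1 (chrXI:631140-631157, plus strand): taaaataacAacATGtcc

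A stood at -3 in 65.3% of decreased and 41.1% of increased genes, against 61.3% of all genes, as in *SSA3* and *DEF1* but also in *PCK1*. T or C stood there in 17.3% of decreased and 37.5% of increased genes, against 19.1% of all. Genes with T at this position numbered 548, and their median ∆TErel was 0.04, against -0.10 for the 3198 genes with A. Those with T also had less mRNA, with a median of 39.3 CPM in WT against 58.3 CPM for A. Their median log2 TE in the Degron WT was lower too, at -0.40 against 0.18, and the base was not examined apart from these features. The letters ATG were searched on the coding strand in the 100 bases of genome before each start codon, whether or not these bases are transcribed. They occur in 49.5% of all genes, in 20.0% of decreased and in 67.9% of increased genes. Of the 2632 genes without such a triplet 4.56% decreased and 0.684% increased, and of the 2581 genes with at least one 1.16% decreased and 1.47% increased. Genes with the triplet also had less mRNA, with a median of 41.2 CPM in WT against 68.6 CPM for those without, and a shorter coding sequence. Among genes above the median mRNA level, 2.16% of those with the triplet and 6.2% of those without decreased, and among genes above the median length 1.67% and 6.67%. Increases above the median mRNA level were 6 genes (0.589%) with the triplet and 5 (0.313%) without, and up to that median 32 (2.05%) and 13 (1.26%). Increases made up 3.05% of genes in the lowest of 5 classes by WT mRNA and 0.477% in the highest, so the share of the triplet among increased genes is not separate from low mRNA. In *SSA3* the triplet occurs 2 times in the window, whereas the other decreased genes shown have none, and of the increased genes shown *DMO1* has 2, *ABM1* and YGL088W have 1 and *PCK1* has none.

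The calls were set beside those of *eIF3a/b Degron* cells, in which the whole complex is depleted by a degron, tested by the same model against their own WT. No library is shared, but medium, temperature, time and strain differ, and in the Degron comparison 33.1% of genes decreased and 26.8% increased. Of the 151 genes with a decrease in *eIF3i DDKK* cells, 140 (92.7%) also decreased in *eIF3a/b Degron* cells, which is 8.02% of the decreases there, and 0 increased. Of the 59 genes with an increase in *eIF3i DDKK* cells that were tested in both, 51 (86.4%) also increased, which is 3.66% of the increases there, and 1 decreased. *PEP1* had a ∆TErel of -1.60 in *eIF3i DDKK* and -2.52 in *eIF3a/b Degron* cells, and *GCN4* values of -1.97 and -2.13. *LEU2* and *HOL1* differed. *LEU2* had values of -1.91 in *eIF3i DDKK* and -0.02 in *eIF3a/b Degron* cells (edgeR adjusted p = 0.943 in the second), and *HOL1* had -0.87 and -0.11 (adjusted p = 0.478). The difference between the strains was not tested for single genes.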

How the data were processed

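The values deposited by the authors are raw counts of reads on each coding sequence, from which 15 codons at the start and 5 at the end had been excluded. Per the submitters' processing notes, CASAVA 1.8, Bowtie2 2.2.6.0, TopHat2 2.1.0 and DESeq2 were used with the sacCer3 build. The length of each counted region, a further column of the authors' tables, holds introns. A deposited table of the authors' own DESeq2 results (fold changes and p-values) was not used.

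Counts were analysed in edgeR 4.0.16 (R 4.3.3) with the quasi-likelihood test of the interaction of assay and genotype over 8 libraries, scaled by TMM. p-values were two-sided and adjusted by Benjamini-Hochberg over 5244 genes. The methods of the study use DESeq2, which was run as an alternative (1.42.0). Standard errors were taken as the absolute log2 change over the root of the F statistic. The fit was also run on simulated counts. These were drawn independently for each library, so that run did not cover the sharing of a lysate by 2 libraries. Each p-value of the main fit measures the spread between the 2 libraries of each assay and strain. It treats the footprint and mRNA libraries of a lysate as independent, which only the culture block does not. Over genes, the replicate differences of footprints and mRNA correlated at 0.44 in *eIF3i DDKK* cells and 0.22 in WT. Counts were not corrected for duplicates of PCR. The depth of each library is given with the results.

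Named genes were the 10 largest decreases and increases with at least 100 footprints in each footprint library and both mutant cultures beyond both WT cultures, the 3 largest in each direction with fewer, up to 4 called genes per list or the one with the smallest p, and the eIF3 and strain marker genes. The members, lists and rules were chosen with earlier results of these data known. Gene names, introns, overlaps and sequences came from NCBI RefSeq (R64), which holds 5213 of the 5244 genes. Alternatives were other scalings and filters, the replicate number or the culture as a block, stricter thresholds, and fits without single cultures. Figures and tables used Python 3.11.15 with numpy 2.4.6, pandas 2.3.3 and matplotlib 3.10.9.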

Additional observations from a re-analysis of the deposited data

How the results depend on the processing

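The counts of decreases and increases moved with the fit. With the replicate number as a block, which pairs cultures by number only, there were 433 and 154, and with the culture as a block 668 and 234. The pairing by number has a correlation of deviations between strains of 0.22 in mRNA, 0.30 in footprints and 0.04 in TE over 2 pairs, and the labels do not say that a number marks a shared day. The replicate block and the culture block kept all 151 and 60 genes. Decreases fell to 49 with library sizes alone, 56 with library sizes without YDR445C, 84 with TMM within each assay, 75 among well-counted genes alone (27 increases) and 21 at an adjusted p under 0.01 (10 increases), and DESeq2 gave 112 increases. Without single cultures there were 2 to 511 decreases and 1 to 230 increases. For all genes the median, -0.08, was 0.0513 with library sizes alone, 0.0509 with library sizes without YDR445C, -0.0060 with TMM within each assay, -0.0044 with DESeq2, -0.0781 with no filter, -0.0703 among well-counted genes and -0.0904 to -0.0626 without single cultures. The cause of these shifts was not tested, apart from the smaller number of genes under a filter. Added after the data were seen, a test of genes without an intron gave 150 and 56.

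Of the 77 called genes that are named, 77 kept their call under either block and without mutant culture 1, and 75 with DESeq2 (not *MRPL7* and *MRPS35*). *SSA4*, *YAP1*, *ERO1*, *GDH1* and 7 others lost it with TMM within each assay, 27 lost it with library sizes alone, 23 with library sizes without YDR445C and 8 without mutant culture 2, and 74 and 72 lost it without WT culture 1 or 2, while their direction held. Only YDR445C, not called, changed sign. Its value ran from -0.10 without WT culture 1 to 2.68 without WT culture 2. Relative list medians kept their sign in 30 of 39 lists, but moved by more than the spread between pairings of cultures in 20 without mutant culture 1, 7 without mutant culture 2, 7 without WT culture 1 and 4 without WT culture 2. Precision is limited by 2 cultures per strain and by the shallower libraries of the mutant.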

Other observations

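Some genes outside the lists were picked after their values were seen, so they stand as single genes and say nothing of a group. TE increases were found for the inorganic sulfur and sulfonate transporter *SOA1* (2.23, standard error 0.41, adjusted p = 0.0207), the sulfonate dioxygenase *JLP1* (1.99, standard error 0.41, adjusted p = 0.0304) and the sulfatase *BDS1* (1.35, standard error 0.26, adjusted p = 0.0233). The sulfate assimilation genes *MET3* (-0.54), *MET5* (-0.31), *MET10* (-0.87), *MET14* (0.28), *MET16* (0.81) and *MET17* (-0.59) lay on both sides of 0 and did not pass the threshold. *SOA1* had 89 and 140 footprints in *eIF3i DDKK* cells and 94 and 105 in WT at 55 and 55 mRNA reads in *eIF3i DDKK* cells and 105 and 86 in WT. *JLP1* had 46 and 57 footprints in *eIF3i DDKK* cells and 56 and 53 in WT. These are raw counts, from shallower libraries in the mutant. In *eIF3a/b Degron* cells, *JLP1* and *BDS1* had values of 2.01 and 1.63, and *SOA1* had one of -0.32. A set of 246 tested genes whose annotation names meiosis or sporulation was also formed after values were seen. In it 11 genes increased (4.47%, against 1.14% of all genes) and 7 decreased (against 2.88% of all genes). Its median ∆TErel was -0.01. The share of increases was not tested, and it was not examined apart from the mRNA level. In the lowest class of genes by WT mRNA 3.05% increased. The increased genes of this set include *MSH5* (2.04, standard error 0.22, adjusted p = 0.0020) and its partner *MSH4* (1.51, standard error 0.30, adjusted p = 0.0258). *MSH5* had 88 and 89 footprints in *eIF3i DDKK* cells and 76 and 73 in WT.

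The decreases also held single phosphatase genes, again picked after their values were seen. *CNA1* (-0.76) was called as a decrease, while *GLC7* (-0.08), *CNB1* (-0.13) and *CMP2* (0.08) were not called. The Sit4-associated proteins *SAP190* (-1.62, standard error 0.21, adjusted p = 0.00460) and *SAP155* (-1.38, standard error 0.21, adjusted p = 0.00990) had little change in mRNA (-0.13 and -0.20). *SAP155* had 28.5 and 26.1 footprint CPM in *eIF3i DDKK* cells and 73.2 and 90.1 in WT. The PP2A catalytic subunits *PPH21* and *PPH22* changed by -0.90 and -0.74, but share 23% and 22.5% of their 28-nt windows with another gene. The repressible acid phosphatase genes *PHO12* and *PHO11* (-1.84 and -1.74) share 92.2% and 93.2%, so that their counts are not independent.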
